A study of Mus musculus with 6 samples.

Results

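The transcripts described here are those of the 2-cell-like state and the multicopy gene families tied to it, in clones of mouse iPSCs (induced pluripotent stem cells) with and without a Tet1 knockout. Members were taken by gene name from the deposited table of read counts: every row named Zscan4, Usp17l, Tcstv or Pramel with any ending, Eif1a and Eif1ad, and the single rows Arg2, Tdpoz1, Tdpoz3, Tdpoz4, Zfp352, Tmem92 and Sp110. The rule matched 32 of the 48440 rows, and 30 of these held at least 1 read, out of 25600 such rows in the table. Pramel4 and Pramel were at 0 in every library. Copies of a family were summed, which gave 11 units: the Zscan4 (8 rows), Usp17l (6 rows), Pramel (5 rows), Tdpoz (3 rows) and Tcstv (2 rows) families and the single genes Arg2, Tmem92, Zfp352, Sp110, Eif1a and Eif1ad.

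The study sequenced polyadenylated RNA of 6 clonal lines, 3 per group, which the labels call biological replicates and place in the same sequencing batch. The non-targeted group is the clones 49, 51 and 52, with the genotype wt/wt;GFP/wt. The knockout group is the clones 14, 30 and 33, which share that genotype and carry in addition the label Tet1 Cas9 mut/mut. All 6 are male, carry the strain names B6- Tet1tm1Kohx and B6;CBA-Tg(Pou5f1-EGFP)2Mnn/J with 1 GFP allele, and descend from a single iPSC line, iPSC34.3, itself reprogrammed from wild-type embryonic fibroblasts, so the groups differ by clone within the same line. That line had been kept for 14 passages in KSR medium, was transfected with Cas9 protein, a guide RNA against Tet1 and a single-stranded donor oligonucleotide, and was kept for 12 h with a compound that enhances homology-directed repair. Picked colonies went through 4 more passages and grew on fibroblast feeders before the iPSCs were taken off for RNA. The labels give that protocol for both groups and do not say which of these agents the non-targeted clones met.

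Cultures of mouse pluripotent cells hold, at any moment, a few cells that pass through a state resembling the 2-cell embryo, when the embryo's own genome is first transcribed. These cells switch on the transcription factor Dux, endogenous MERVL retroviruses and tandem gene families such as Zscan4, Usp17l and Tcstv, and then return to ordinary pluripotency. Zscan4 proteins, which carry a SCAN domain and zinc fingers, are known for their part in telomere maintenance in embryonic stem cells, and Tet1 is an enzyme that oxidises 5-methylcytosine in DNA. In RNA from a bulk culture, fewer cells of a type and less RNA per cell cannot be told apart.

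Copies of Zscan4 share long stretches of sequence, and those of Usp17l share shorter ones, which bears on the counts of single copies below. The 100 bases of chromosome 7 that end just past the TATAAA element upstream of the RefSeq start (GRCm38, from RefSeq's promoter windows) are shown for the 4 Zscan4 copies that had a RefSeq promoter, 5′ to 3′ on the gene's strand, with capitals where a copy differs from Zscan4c. The windows are chr7:11005599-11005698 (+ strand) for Zscan4c, chr7:11166206-11166305 (- strand) for Zscan4d, chr7:11397792-11397891 (+ strand) for Zscan4f and chr7:10905074-10905173 (- strand) for Zscan4b.
Zscan4c promoter: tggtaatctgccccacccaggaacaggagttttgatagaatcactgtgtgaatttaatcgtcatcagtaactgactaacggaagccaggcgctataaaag
Zscan4d promoter: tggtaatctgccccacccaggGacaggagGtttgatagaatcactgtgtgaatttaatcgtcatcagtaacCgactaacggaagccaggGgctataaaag
Zscan4f promoter: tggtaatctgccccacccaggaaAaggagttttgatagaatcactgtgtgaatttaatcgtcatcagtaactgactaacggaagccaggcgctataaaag
Zscan4b promoter: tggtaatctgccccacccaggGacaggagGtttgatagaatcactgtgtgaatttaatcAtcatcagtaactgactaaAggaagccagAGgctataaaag

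Against Zscan4c, the Zscan4f window differed at 1 base, the Zscan4d window at 4 and the Zscan4b window at 6. The 4 Usp17l copies with a RefSeq promoter, on the same chromosome, are shown in the same way with capitals where a copy differs from Usp17lc. Their windows are chr7:103416516-103416615 (+ strand) for Usp17lc, chr7:103252608-103252707 (- strand) for Usp17ld, chr7:104842607-104842706 (- strand) for Usp17lb and chr7:104856878-104856977 (+ strand) for Usp17la. The Usp17lc window lies inside the longer gene body that the counting used for this copy.
Usp17lc promoter: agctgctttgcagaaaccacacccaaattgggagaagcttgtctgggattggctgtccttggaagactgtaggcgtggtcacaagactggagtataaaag
Usp17ld promoter: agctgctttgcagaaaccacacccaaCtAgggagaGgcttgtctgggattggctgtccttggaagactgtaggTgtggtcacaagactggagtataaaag
Usp17lb promoter: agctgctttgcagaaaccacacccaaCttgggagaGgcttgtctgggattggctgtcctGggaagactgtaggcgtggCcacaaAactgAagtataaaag
Usp17la promoter: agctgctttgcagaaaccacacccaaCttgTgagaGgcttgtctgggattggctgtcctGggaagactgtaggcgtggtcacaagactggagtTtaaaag

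Usp17ld differed from Usp17lc at 4 of the 100 bases, Usp17la at 5 and Usp17lb at 6, and 1 of the 5 changes in Usp17la falls in the element itself. TATAAA, searched on both strands of the RefSeq windows of 300 bases, was present in 4 of 4 Zscan4 promoters, in 3 of 4 Usp17l promoters and in none of the other 11 member windows. It occurred in 13.62% of all 32851 windows of that length. A match is a description of the letters and not of a bound factor.

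In Zscan4 the start of the coding sequence is closer still. The first 100 coding bases of Zscan4c (chr7:11006556-11006655, + strand, GENCODE M21 on GRCm38) were the same in 6 of the 7 member rows with an annotated coding sequence, namely Zscan4b, Zscan4c, Zscan4e, Zscan4f and the copies that M21 names Zscan4-ps1 and Zscan4-ps2. Zscan4d (chr7:11165249-11165348, - strand) differed at 3 bases, shown in capitals.
Zscan4c coding start: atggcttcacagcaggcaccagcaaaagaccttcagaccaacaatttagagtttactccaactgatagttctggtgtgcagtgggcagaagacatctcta
Zscan4d coding start: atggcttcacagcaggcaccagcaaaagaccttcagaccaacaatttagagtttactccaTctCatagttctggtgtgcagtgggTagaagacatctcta

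A read from such a stretch cannot be placed on 1 copy. The counting command sets no option to count reads that map to several places, so the deposited count of a copy rests on reads that reach bases in which it differs from its relatives. Windows of 50 bases were taken along each member's longest annotated transcript and searched in the spliced transcripts of other genes. The share found exactly in another gene was 48.4% to 95.3% over the 8 Zscan4 rows, 20.4% to 51.1% over the 6 Usp17l rows, 41.2% to 66.2% over the 3 Tdpoz rows and 16.8% to 31.4% over the 2 Tcstv rows. For windows of 100 bases the shares were 23.4% to 89.5%, 3.83% to 39.5%, 11.6% to 46.7% and 4.06% to 7.79%. The sources used here do not give the read length, and the windows leave out the introns, which the counting over whole gene bodies included. These shares describe the spliced copies and do not estimate how many reads were lost. Zscan4f shared the most (95.3% of 50-base windows, mostly with Zscan4-ps2), and Zscan4d and Zscan4-ps1 the least of their family (49.6% and 48.4%). Among members outside the families, Tmem92 shared 2.01%, Eif1a 4.05% and Zfp352 7.09% of 50-base windows. Sp110 shared 53.8%, nearly all with Gm16026. The 21.2% of Arg2 lay mostly in Vti1b, a gene that overlaps it on the opposite strand, and the counting used strand. Pramel1 and Pramel6 shared none and Pramel7 0.442%.

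**Figure D1:**
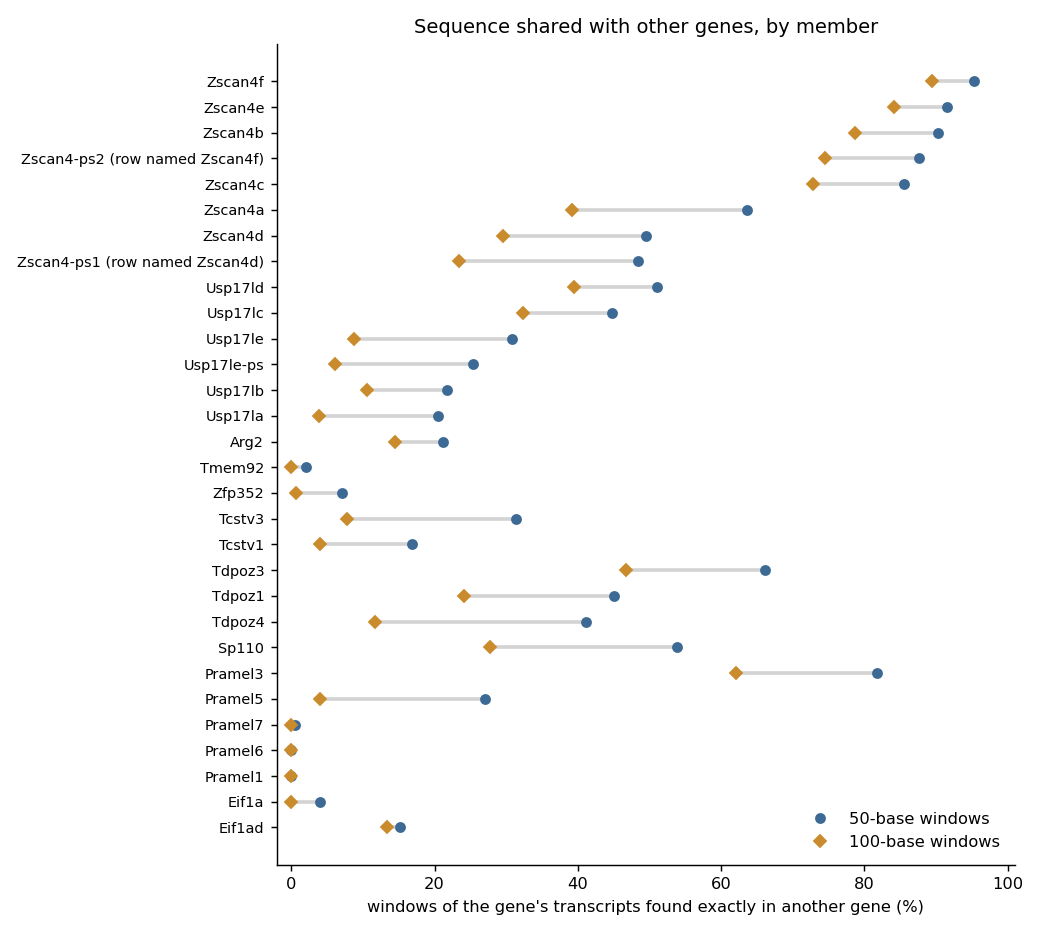
Percent of all 50-base (circles) and 100-base (diamonds) windows in each member's longest GENCODE M21 transcript that occur exactly in a transcript of another gene, 1 row of the table per line. Zscan4f reaches 95.3% at 50 bases, whereas Pramel1 and Pramel6 sit at 0.

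Library totals ran from 11937909 to 16189554 counted reads. Tet1, the targeted gene, checks the labels: it stood at 365, 231 and 288 CPM (reads scaled to a common library size with TMM factors) in knockout clones 14, 30 and 33 and at 1158, 966 and 1034 CPM in non-targeted clones 49, 51 and 52. All knockout clones lay below all non-targeted clones, with a log2 fold change of -1.84 ± 0.16 (SE; edgeR quasi-likelihood test, Benjamini-Hochberg adjusted p = 0.0596). At an adjusted p of 0.05 this test called 0.0% of 14664 genes past the filter on low counts, while 25.2% had an unadjusted p under 0.05. DESeq2, run as an alternative, called Tet1 (adjusted p = 1.0e-19) and 4.97% of 15163 genes as higher and 2.8% as lower in the knockout. Of 7 pluripotency markers 6 had reads, and their summed level spanned 1655 to 2587 CPM over the knockout clones against 2591 to 2887 CPM over the 3 others, while Sox2, which lies within Sox2ot on the same strand, was at 0. Markers of the feeder cells moved with the groups. The 27 fibroblast genes on the list, none at 0, summed to 1105, 1173 and 1934 CPM in clones 14, 30 and 33 against 940, 943 and 1050 CPM in clones 49, 51 and 52, and DESeq2 called 13 of them higher. The 19 naive pluripotency genes all had log2 fold changes below 0 (median -0.56; median over all tested genes 0.002), with 2 called lower by DESeq2 (Tdh and Stat3). Both hold for each result below, and their part in the results was not tested.

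Outside Pramel, Eif1a and Eif1ad, reads were few, and their sum was higher in every knockout clone than in any non-targeted clone. The 8 units other than Pramel, Eif1a and Eif1ad together held 185, 319 and 208 reads in clones 14, 30 and 33 and 49, 71 and 95 reads in clones 49, 51 and 52. That is a summed level of 14.2, 26.4 and 14.96 CPM against 3.95, 4.43 and 6.60 CPM. The naming rule does not make this grouping, which leaves out the units with log2 fold changes near 0, so the sum is no separate support. Of its 927 reads, 459 were from Zscan4 and 275 from Usp17l. With Pramel kept in, the sums were 272, 453 and 273 reads in clones 14, 30 and 33 against 170, 151 and 176 in clones 49, 51 and 52. Clone 30 had the highest level of the 6 clones in 7 of these 8 units, and clone 14 in the remaining unit, Tcstv. The summed feeder markers were highest in clone 33 and were also above every non-targeted clone in clones 14 and 30. Their part was not tested.

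**Figure D2:**
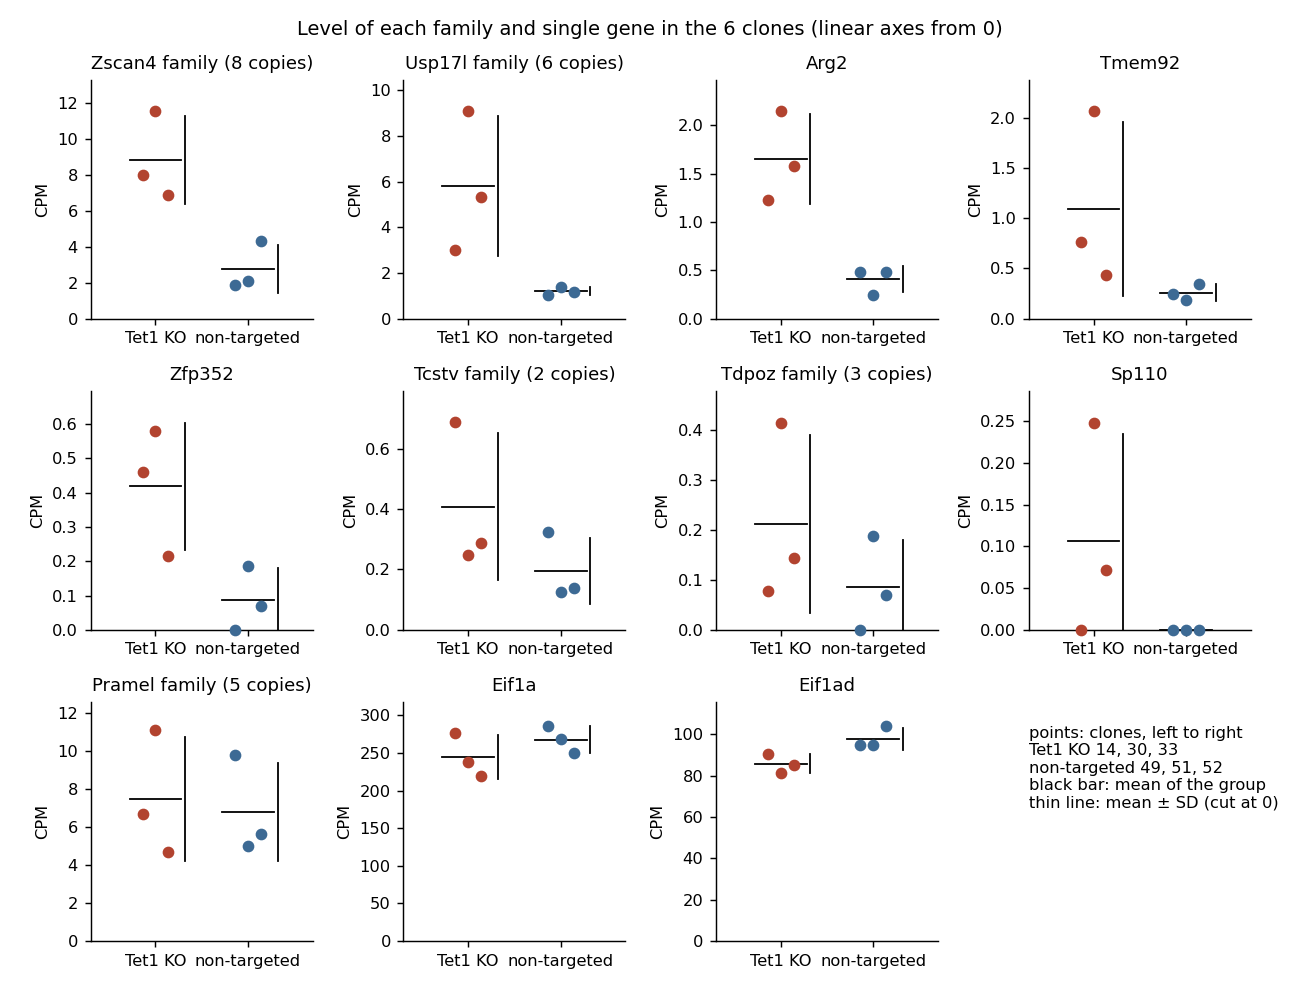
Level in CPM (linear axes from 0) of each family sum or single gene in the 3 Tet1 knockout (KO) and 3 non-targeted clones, with the group mean as a bar and ± SD as a line. Zscan4, Usp17l, Arg2, Tmem92 and Zfp352 show no overlap between the groups, and clone 30 is the highest point of Zscan4 at 11.6 CPM and of Usp17l at 9.10 CPM. The gap in Zfp352 rests on library scaling, as clones 33 and 51 held 3 reads each.

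Zscan4, a family used to mark the state in reporter lines, was about 3 times as abundant in the knockout clones. The summed counts were 104, 140 and 96 in clones 14, 30 and 33 and 23, 34 and 62 in clones 49, 51 and 52, or 7.97, 11.6 and 6.90 CPM against 1.86, 2.12 and 4.31 CPM. The lowest knockout clone, 33, lay above the highest non-targeted clone, 52. The means were 8.82 ± 2.45 and 2.76 ± 1.35 CPM (SD, n = 3 each), a log2 fold change of 1.65 ± 0.35 (SE) with an edgeR adjusted p of 0.102 and unadjusted p of 0.00189. DESeq2 gave 1.66 ± 0.39 with adjusted p = 0.00186. Without clone 30 the DESeq2 adjusted p was 0.0667 (log2 fold change 1.422), and without clone 49 it was 0.0545 (1.45). Without clone 14 edgeR also called the family (1.72, adjusted p = 0.0105), but row by row it then called 4378 of 14664 genes. Without clone 33 the log2 fold change was 1.81 (DESeq2 adjusted p = 0.0049). The ratio of pooled counts, scaled to library size, was 3.13, with a 95% exact interval of 2.54 to 3.89 that covers counting error only.

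Every Zscan4 row was higher in the knockout group as a whole. Zscan4d on chromosome 7 (11161374 to 11166159, - strand) held the most reads, 121 of 459, with 2.30, 2.90 and 1.73 CPM in clones 14, 30 and 33 and 0.565, 0.437 and 1.25 CPM in clones 49, 51 and 52. Zscan4a (10794242 to 10799057), which M21 types as an unprocessed pseudogene, followed with 93 reads, at 1.46, 2.15 and 1.58 CPM against 0.726, 0.250 and 0.904 CPM. Zscan4c (11005745 to 11010547) had 63 reads, at 1.15, 1.57 and 1.01 CPM against 0.242, 0.187 and 0.626 CPM. The groups did not overlap in any of these 3 copies, and edgeR gave log2 fold changes of 1.599 ± 0.42, 1.48 ± 0.43 and 1.79 ± 0.46 with adjusted p between 0.113 and 0.123. Without clone 52 the log2 fold changes were 2.192, 1.883 and 2.492, and without clone 51 they were 1.287, 1.057 and 1.441. Levels of the copies are not compared with each other, because the share of windows found in another gene differed between Zscan4d (49.6%), Zscan4a (63.6%) and Zscan4c (85.5%).

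The 5 remaining Zscan4 rows held between 16 and 47 reads each. Zscan4e was at 0.843, 0.827 and 0.863 CPM in clones 14, 30 and 33 against 0, 0.562 and 0.209 CPM in clones 49, 51 and 52, with no overlap (log2 fold change 1.57 ± 0.64, edgeR adjusted p = 0.181, and 2.816 without clone 51). The row named Zscan4d that M21 renames Zscan4-ps1 (11065139 to 11069691) was at 1.15, 0.910 and 0.503 CPM against 0.0807, 0.0624 and 0.834 CPM. Here clone 52 lay above clone 33, and this was the only Zscan4 row in which the groups overlapped (1.35 ± 0.76, edgeR adjusted p = 0.297). Its log2 fold change rested on single non-targeted clones, at 3.425 without clone 52 and 0.79 without clone 51 (edgeR adjusted p = 0.365 and 0.547). Zscan4b, Zscan4f and Zscan4-ps2 (the second row named Zscan4f) were below the filter, with 11 against 5, 27 against 5 and 32 against 10 reads in the pooled groups. The 3 rows that M21 names or types as pseudogenes held 182 of the 459 Zscan4 reads (39.65%). Without them the family's log2 fold change was 1.73 (edgeR adjusted p = 0.102, DESeq2 adjusted p = 0.00316). Zscan4-ps3, which the table lists under a clone-based name and the naming rule therefore misses, had 13, 12 and 12 reads in clones 14, 30 and 33 and 2, 5 and 5 in clones 49, 51 and 52.

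Usp17l, a family of deubiquitinating enzymes once named Dub, had the largest log2 fold change of the families past the filter. Its summed counts were 39, 110 and 74 in the knockout clones and 13, 22 and 17 in the non-targeted clones, or 2.99, 9.10 and 5.32 CPM against 1.05, 1.37 and 1.18 CPM. The knockout clones were all higher but spread widely, from clone 14 to clone 30, while the non-targeted clones lay close together. The means were 5.80 ± 3.08 and 1.20 ± 0.163 CPM (SD, n = 3 each), with a log2 fold change of 2.24 ± 0.48 (edgeR adjusted p = 0.102, unadjusted p = 0.00195). DESeq2 called the family (2.26 ± 0.48, adjusted p = 4.5e-04), and did so again when each of the 6 clones was left out in turn, with adjusted p from 2.288e-07 to 0.0321. The pooled ratio was 4.70 (3.46 to 6.49).

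Usp17le (chromosome 7, 104768049 to 104777470, - strand) held 116 of the 275 Usp17l reads. Its level was 0.843, 4.39 and 2.52 CPM in clones 14, 30 and 33 and 0.161, 0.437 and 0.556 CPM in clones 49, 51 and 52. Clones 30 and 33 stood well above the rest, while clone 14 was only slightly above clone 52 (log2 fold change 2.65 ± 0.72, edgeR adjusted p = 0.118, DESeq2 adjusted p = 0.0108). Its share of the family's reads was 28.2% in clone 14 and 48.2% in clone 30. Usp17lb, the next most counted, was at 0.997, 1.16 and 1.08 CPM against 0.484, 0.374 and 0.139 CPM, with no overlap (1.69 ± 0.41, edgeR adjusted p = 0.106). With Usp17le left out, the family kept a log2 fold change of 1.95 (edgeR adjusted p = 0.101, and DESeq2 adjusted p = 0.00456 in a fit added after seeing the data). Usp17lc, Usp17la and Usp17ld were below the filter, with 33 against 12, 33 against 7 and 15 against 2 pooled reads, and in each of them every knockout clone was above every non-targeted clone. Usp17le-ps had 1 read, in clone 33.

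**Figure D3:**
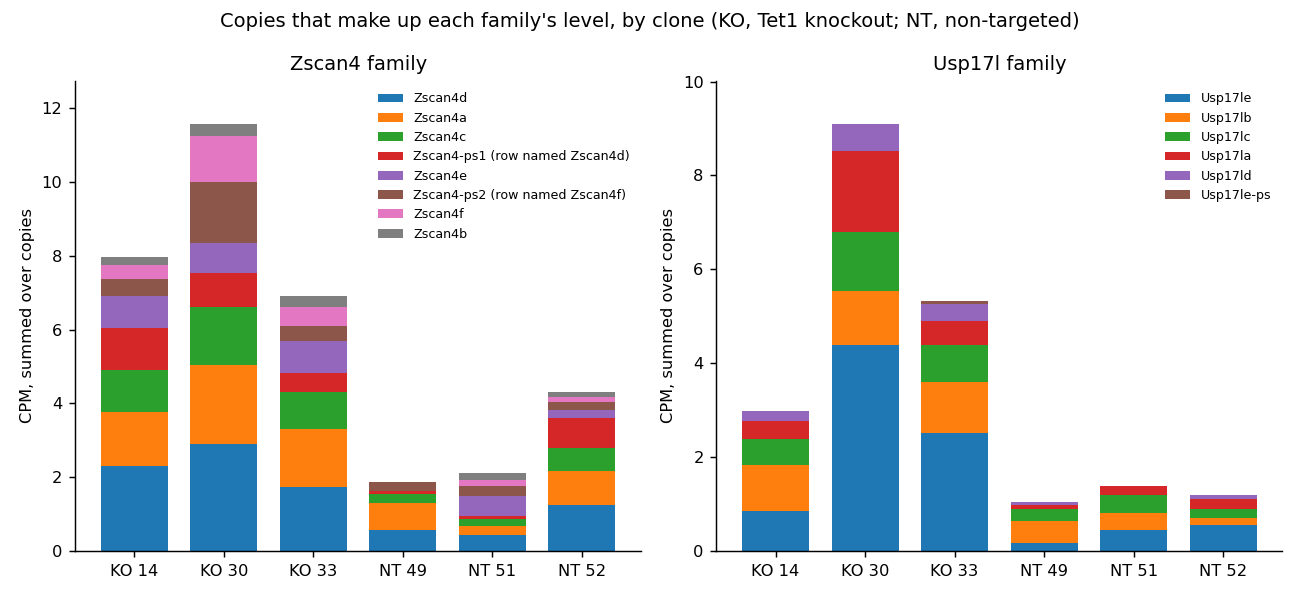
Level in CPM of each copy, stacked to the family's sum, in the 3 Tet1 knockout (KO) and 3 non-targeted (NT) clones, for Zscan4 (left) and Usp17l (right). Zscan4d and Zscan4a hold the most counted reads in knockout clones, but copies differ in shared sequence, so their levels are not compared. Usp17le takes 48.2% of the Usp17l reads of clone 30 but 28.2% of those of clone 14.

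Arg2, the mitochondrial arginase that splits arginine into ornithine and urea, had 16, 26 and 22 reads in clones 14, 30 and 33 and 6, 4 and 7 in clones 49, 51 and 52. The levels were 1.23, 2.15 and 1.58 CPM against 0.484, 0.250 and 0.487 CPM, with no overlap and a gap of more than the range of the non-targeted clones. edgeR gave a log2 fold change of 2.02 ± 0.40 (adjusted p = 0.102, unadjusted p = 0.00127), and DESeq2 called it (2.03 ± 0.63, adjusted p = 0.0239). That call was lost without clone 51 (1.76, adjusted p = 0.128), held without clone 14 (2.20, adjusted p = 0.0178), and had no adjusted p without any of the other clones, because DESeq2's own filter left the gene without one.

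Tmem92, a transmembrane protein gene, and Zfp352, a zinc-finger gene transcribed in the 2-cell embryo, were below the filter and are given by their counts. Tmem92 had 10, 25 and 6 reads in the knockout clones and 3, 3 and 5 in the non-targeted clones. The groups did not overlap, but clone 33 was near clone 52, at 0.431 and 0.348 CPM. Its pooled ratio was 4.09 (2.06 to 8.82), and 1.208 on the log2 scale in place of 2.031 without clone 30. Zfp352 had 6, 7 and 3 reads against 0, 3 and 1, a ratio of 4.39 (1.415 to 18.03), and clone 33 at 0.216 CPM was close to clone 51 at 0.187 CPM. Both of these clones held 3 reads, so the scaling to library size alone set them apart. On the log2 scale the Zfp352 ratio of 2.133 became 3.456 without clone 51. Fitted with no filter, edgeR gave adjusted p = 0.195 for Tmem92 and 0.234 for Zfp352.

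Tcstv, the variable group of 2-cell-stage genes, and Tdpoz, genes whose proteins carry TRAF and POZ domains, were counted too rarely to compare. Tcstv had 9, 3 and 4 reads in the knockout clones and 4, 2 and 2 in the non-targeted clones, and the groups overlapped. Its pooled ratio of 2.19 had an interval of 0.886 to 5.92. Of these, Tcstv1 gave 13 against 5 reads and Tcstv3 gave 3 against 3. Tdpoz had 1, 5 and 2 reads against 0, 3 and 1, also with overlap and a ratio of 2.19 (0.588 to 9.95). Leaving out clone 14 or clone 49 for Tcstv and clone 30 or clone 51 for Tdpoz moved these ratios by the largest factors, to 0.527 and 1.64 and to 0.253 and 2.456 on the log2 scale. Sp110, a nuclear body protein gene, had 0, 3 and 1 reads in the knockout clones and 0 in all non-targeted clones, which allows up to 3 reads, and no fold is given. At this depth a difference in these 3 units was not detectable.

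**Figure D4:**
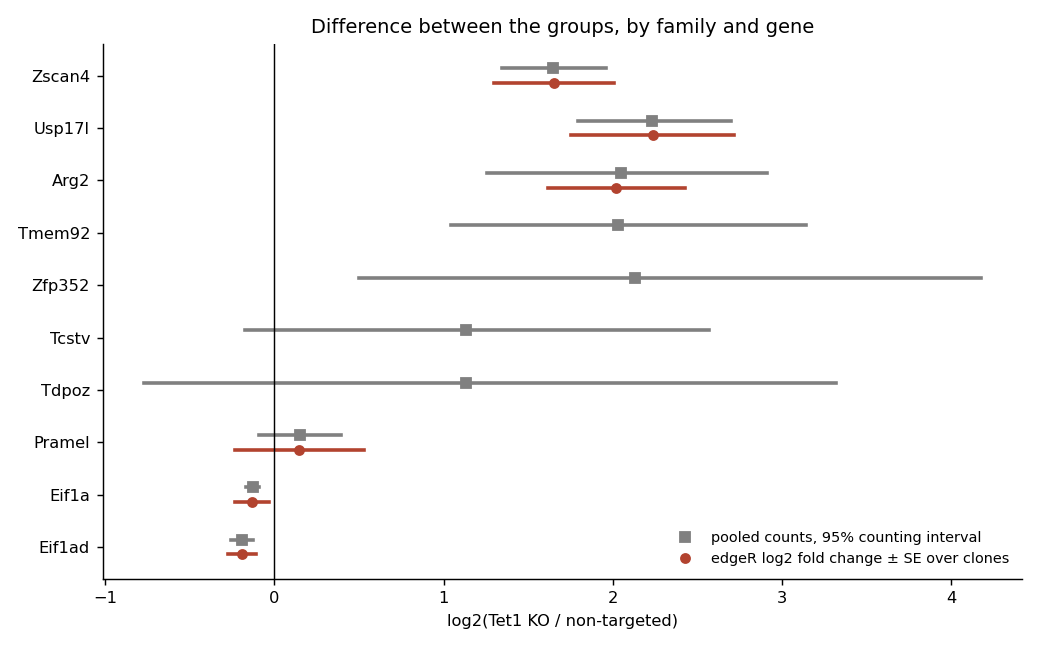
Log2 ratio of Tet1 knockout (KO) to non-targeted level by unit: squares with the 95% exact interval of pooled counts (counting error only), and circles with the edgeR log2 fold change ± SE over clones for units past the filter. Usp17l lies at 2.24 and Zscan4 at 1.65, Pramel, Eif1a and Eif1ad lie near 0, and Sp110 is not drawn because the non-targeted clones had 0 reads.

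The Pramel family, taken as the rows of that name only, overlapped between the groups. Rows named Pramef, and any relatives under other names, fall outside the naming rule and this sum. Pramel genes encode leucine-rich repeat proteins related to human PRAME, and Pramel7 is known for its part in the naive state of the inner cell mass. The family had 87, 134 and 65 reads in clones 14, 30 and 33 and 121, 80 and 81 in clones 49, 51 and 52, with the highest and the lowest clone both in the knockout group (log2 fold change 0.15 ± 0.38, edgeR adjusted p = 0.833). Its sign turned to -0.23 without clone 30 and to -0.04 without clone 51. Pramel7 was at 3.30, 5.21 and 1.51 CPM against 5.41, 3.31 and 3.06 CPM (-0.24 ± 0.44, edgeR adjusted p = 0.761). The sign of that value turned to 0.13 without clone 33 and 0.04 without clone 49. Pramel1 was at 2.91, 4.80 and 2.88 CPM against 3.39, 1.12 and 1.95 CPM (0.75 ± 0.42, adjusted p = 0.289). Pramel6 had 22 against 26 pooled reads, and Pramel5 and Pramel3 had 3 and 2 reads in all. Both Pramel7 and Pramel1 overlapped between groups, and both were highest among the knockout clones in clone 30.

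Eif1a and Eif1ad, a translation initiation factor and a protein with its domain, were the well-measured members, as both are expressed in most cells. Only the rows with these names were taken, so any Eif1a-like genes under other names are not covered. Eif1a was at 277, 238 and 220 CPM in clones 14, 30 and 33 against 285, 268 and 250 CPM in clones 49, 51 and 52, with overlap (log2 fold change -0.13 ± 0.10, edgeR adjusted p = 0.437). Eif1ad was at 90.4, 81.3 and 85.1 CPM against 94.7, 94.8 and 103.9 CPM. Its groups did not overlap, with the knockout lower (-0.19 ± 0.08, edgeR adjusted p = 0.197, DESeq2 adjusted p = 0.26). An exact permutation test over 3 clones against 3 cannot go below p = 0.1 (two-sided), the value reached by Zscan4, Usp17l, Arg2, Tmem92, Zfp352 and Eif1ad. Zfp352 reached it only through the scaling of equal reads in clones 33 and 51.

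Counted by unit, edgeR called 0 of the 11 units and 0.0% of all 14658 rows tested once families were summed (unadjusted p under 0.05: Zscan4, Usp17l, Arg2 and Eif1ad, against 25.2% of rows). DESeq2 called 3 of the 11 units, Zscan4, Usp17l and Arg2, all as higher, against 5.28% of rows called higher and 2.99% called lower on the same table. Without clone 30 it called 1 of them, and without clone 49 also 1. Counted by row, 16 of the 30 members with a read had every knockout clone above every non-targeted clone, and 1, Eif1ad, had every knockout clone below. Of the 16, 7 were Zscan4 copies and 5 were Usp17l copies, so the rows are not separate observations. In Tdpoz3, Zscan4b and Zfp352 the lowest knockout and the highest non-targeted clone held equal reads (1, 3 and 3). Scaling to library size alone separated the groups in those 3 rows. Across all 25600 rows with a read, 10.9% were higher without overlap, made up of 14.8% of rows past the filter and 5.78% of rows below it, and 14.7% of rows past the filter were lower without overlap. All 16 belong to the 23 rows of the 8 units other than Pramel, Eif1a and Eif1ad, a grouping that the naming rule does not make. Mean CPM was higher in the knockout in all 23 of these and in 24 of the 30 members, against 52.3% of all rows with a read (50.3% of those past the filter and 55.0% of those below it). In Tcstv3, with 3 reads in each group, that difference comes from the scaling to library size alone. Only 12 of the 30 rows passed the filter, so these counts cover every row with a read. Row by row DESeq2 called 2 members higher, Usp17le and Arg2, against 4.97% of 15163 genes. edgeR called none, with 8 of the 12 rows past the filter at an unadjusted p under 0.05, against 25.2% of 14664 genes. Of those 8, 4 were Zscan4 copies and 2 were Usp17l copies, and the others were Arg2 and Eif1ad, which was lower.

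Genes near the clusters were read beside them, against the 4.97% of all genes that DESeq2 called higher. Over all genes past the filter the median log2 fold change was 0.002, and 14.8% were higher and 14.7% lower without overlap. Within 1 Mb of the Zscan4 cluster (chromosome 7, 10794242 to 11519111), 3 other genes passed the filter, the median of their log2 fold changes was 0.41, and DESeq2 called none. Of these 3, 2 were higher without overlap and 0 lower. Around the Usp17l copies (chromosome 7, 103249737 to 104862667) there were 28, with a median of 0.34 and 2 called higher. Without overlap, 8 of the 28 were higher and 3 lower. Around the Tcstv copies on chromosome 13 there were 8, with a median of 0.50 and 3 called higher. Of these 8, 4 were higher without overlap and 0 lower. Around the Tdpoz copies on chromosome 3 there were 15, with a median of 0.13 and 1 called higher. Of these 15, 1 was higher without overlap and 1 lower.

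Other transcripts of the 2-cell stage were read from a list of 63 names, of which 55 had a row and 49 a read. In 10 of the 49 (20.4%) every knockout clone was above every non-targeted clone, in none below, against the 10.9% of all rows with a read that were higher. Only 10 of the 49 rows passed the filter, and 2 of those were higher without overlap and 0 lower, against 14.8% and 14.7% of genes past it. The other rows higher without overlap were below the filter, where the share over all rows was 5.78%. Duxf3, the row that holds Dux, the transcription factor at the head of the programme, had 2, 3 and 3 reads in clones 14, 30 and 33 and 1, 1 and 1 in the non-targeted clones. Those counts are at or under 3 in every clone and give no fold. Gm12794, a predicted gene of the list, had 17 reads in each knockout clone and 1, 6 and 6 in clones 49, 51 and 52 (log2 fold change 2.08 ± 0.43, edgeR adjusted p = 0.102, DESeq2 adjusted p = 0.0428). This was the only gene of the list that DESeq2 called, against 4.97% of all genes. It was not called when any clone was left out, with adjusted p of 0.0718 without clone 14, 0.104 without clone 51 and none given otherwise. Most rows of the list had too few reads for DESeq2 to give an adjusted p. Among them was Gm13078, named after its values were seen, with 12, 16 and 10 reads against 2, 1 and 0 (DESeq2 log2 fold change 3.78 ± 1.11). Fitted with no filter, edgeR gave Gm13078 an adjusted p of 0.106. The list's median log2 fold change over the 10 rows past the filter was 0.26.

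Known activators of the state had a median below 0. All 10 on the list passed the filter, their median was -0.22 on the log2 scale, and none was called by edgeR or DESeq2. Dppa2 and Dppa4, a pair of chromatin proteins that activate Dux, overlapped between the groups. Dppa2 was at 93.8, 67.9 and 53.6 CPM in clones 14, 30 and 33 and 102.1, 90.0 and 82.6 CPM in clones 49, 51 and 52 (-0.35 ± 0.20, edgeR adjusted p = 0.291). Dppa4 was at 81.9, 65.0 and 60.9 CPM against 92.1, 80.6 and 92.2 CPM (-0.35 ± 0.13, edgeR adjusted p = 0.157). In both genes clone 14 lay within the non-targeted range. Yap1, a transcriptional co-activator of the Hippo pathway, had no overlap, at 290.4, 300.0 and 282 CPM against 262, 268 and 249 CPM (0.16 ± 0.07, edgeR adjusted p = 0.176). It was the 1 gene of the 10 with every knockout clone above, and Tfap2c the 1 with every knockout clone below, against 14.8% and 14.7% of genes past the filter. Tfap2c, an AP-2 transcription factor, was at 84.4, 73.1 and 50.6 CPM against 95.1, 91.8 and 89.0 CPM (-0.41 ± 0.17, edgeR adjusted p = 0.193).

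Among repressors of the state, 47 of 48 names had a row and all 47 passed the filter, with a median log2 fold change of -0.11, 12 above 0 and 35 below. DESeq2 called 3 lower and none higher, against 2.8% and 4.97% of all genes, and the 3 were Tet1 itself, Chaf1b and Trim28. In 13 of the 47 every knockout clone was below every non-targeted clone and in 4 above, against 14.7% and 14.8% of genes past the filter. Tet1 is the targeted gene, so its fall was set by the design, and it counts in the 3, the 13 and the 35. Chaf1b, a subunit of the chromatin assembly factor CAF-1, was at 133.7, 123 and 118 CPM in clones 14, 30 and 33 against 153, 159 and 164 CPM in clones 49, 51 and 52 (-0.35 ± 0.08, edgeR adjusted p = 0.102, DESeq2 adjusted p = 0.0197). Trim28, the co-repressor that silences retroviral elements, was at 2193, 2158 and 1780 CPM against 2688, 2429 and 2971 CPM (-0.40 ± 0.11, edgeR adjusted p = 0.117, DESeq2 adjusted p = 0.0428). Neither gene overlapped between groups. DESeq2 called Chaf1b without clone 14 (adjusted p = 1.011e-04) but without no other clone (0.108 to 0.225), and Trim28 without clone 14 or 51 (9.701e-04 and 0.045) but without no other (0.116 to 0.304).

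The regulators Chaf1a, Kdm1a and Zfp42, named whatever their result, overlapped between the groups. Chaf1a, the partner of Chaf1b, was at 167, 182 and 171 CPM against 178, 177 and 190 CPM (-0.07 ± 0.07, edgeR adjusted p = 0.559). Kdm1a, a histone demethylase, was at 316, 264 and 249 CPM against 330, 302 and 320 CPM (-0.20 ± 0.10, adjusted p = 0.249). Zfp42, a zinc-finger protein that marks naive cells, was at 67.5, 49.9 and 36.2 CPM against 79.5, 66.7 and 75.3 CPM (-0.53 ± 0.21, adjusted p = 0.172), with clone 14 inside the non-targeted range.

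**Figure D5:**
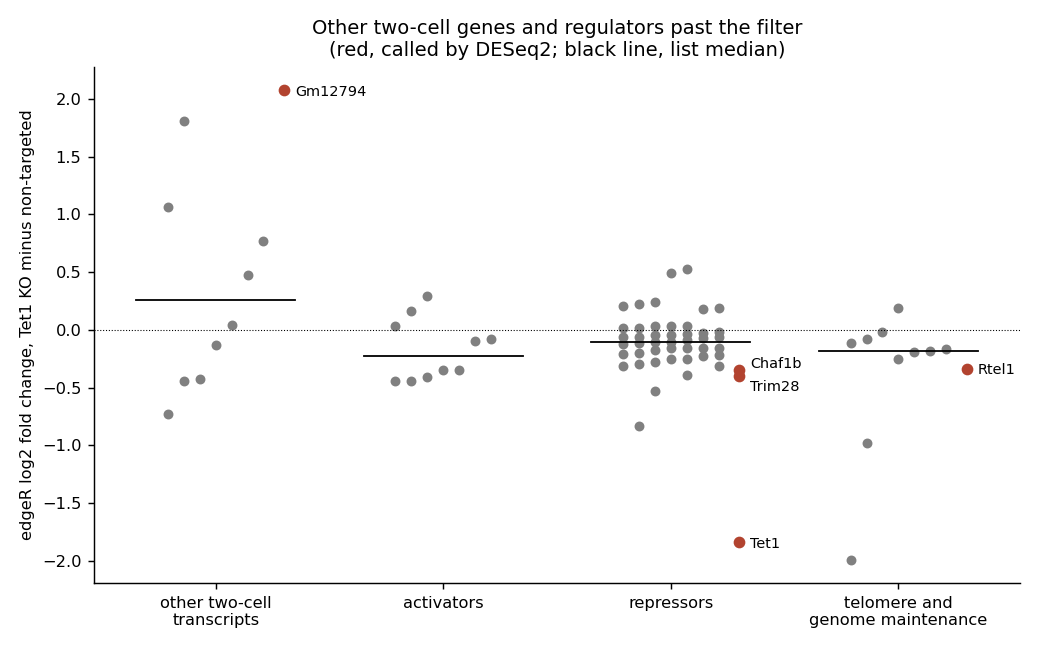
edgeR log2 fold change (Tet1 KO minus non-targeted) of each gene past the filter in 4 lists, with genes called by DESeq2 in red and the list median as a black line. Gm12794 stands at 2.08 and Tet1, the targeted gene, at -1.84. The medians of activators, repressors and telomere genes lie between -0.22 and -0.11.

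Genes of telomere and genome maintenance that are linked to Zscan4 were mostly below 0. Of 12 listed, 11 passed the filter, 1 lay above 0 and 10 below, with a median log2 fold change of -0.18. Rtel1, a helicase that unwinds telomere loops, was at 105, 110 and 104 CPM in clones 14, 30 and 33 against 129, 126 and 147 CPM in clones 49, 51 and 52, with no overlap (-0.33 ± 0.09, edgeR adjusted p = 0.112, DESeq2 adjusted p = 0.0459). It was the only gene of that list called by DESeq2, against 2.8% of genes called lower. The call held without clone 14 (adjusted p = 0.0169) and was lost without any other clone (0.0791 to 0.292). In 3 of the 11 genes every knockout clone was below every non-targeted clone and in none above, against 14.7% and 14.8% of genes past the filter. Smc1b, a cohesin subunit of meiotic cells that was named after its values were seen, had the log2 fold change farthest from 0 on the list, at 14.6, 3.48 and 1.22 CPM against 34.2, 21.5 and 21.1 CPM, with clone 14 well above the other knockout clones (-1.99 ± 0.63, edgeR adjusted p = 0.133, DESeq2 adjusted p = 0.171).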

How the data were processed

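RNA-seq of 6 clones was deposited by the authors as raw whole-number read counts per gene. Per the submitters' processing notes, HISAT2 2.1.0, featureCounts 1.5.3, DESeq2 1.18.1 and the mm10 build were used; per the file headers, counting was by featureCounts 1.6.2, reverse-stranded, over whole gene bodies of GENCODE M15 (GRCm38.p5), with no option to count reads that map to several places or overlap several genes. Family rows were summed and the whole table was fitted with edgeR 4.0.16 (R 4.3.3): filterByExpr (minimum count 10, minimum total 15), TMM factors, quasi-likelihood test on group alone, Benjamini-Hochberg adjustment over all rows, threshold 0.05. The same fit was run on the table as deposited. Labels share replicate numbers but do not say that they pair clones. Alternatives were DESeq2 1.42.0, limma 3.58.1 (voom), other filters and scalings, other sums, a replicate block and leaving out each clone. Added after seeing the data were the DESeq2 fits without a clone, without each family's most counted row and without Pramel6 and Pramel7, the Zscan4 sums by M21 names and types, and the alternatives for units below the filter. Pooled ratios and exact intervals (95%, counting error only) used scipy 1.17.1. Totals of 11937909 to 16189554 reads make 1 read worth about 0.06 to 0.08 CPM. The edgeR and DESeq2 scripts were tested on counts simulated for this comparison, in which DESeq2 recovered slightly more changed genes than edgeR and also called more unchanged ones. Shared windows came from the longest GENCODE M21 transcript of each member, searched in all M21 transcripts. Promoters came from RefSeq (GRCm38.p6), and 18 of the member names had a promoter. The members and lists were chosen with earlier results of these data known. Named genes are every unit, the 4 most counted rows of a family and any row past the filter, Tet1, named regulators, and of each list the called genes (at most 4) or else the 2 with the smallest p.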

Additional observations from a re-analysis of the deposited data

How the results depend on the processing

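With edgeR as described, 0 of the 11 units, 0 member rows and 0 of all genes passed the threshold. DESeq2 called 3 units, 2 member rows, 1178 genes and 5 genes of the 2-cell, activator, repressor and telomere lists, with the targeted gene Tet1 among the 5. limma voom called 1 gene, Tet1, and leaving out the filter on low counts gave 4 genes, 1 of them in the lists. Other scaling and filters, the older quasi-likelihood method and other sums called 0 units in edgeR, with log2 fold changes of 1.65 to 1.73 for Zscan4 and 1.95 to 2.25 for Usp17l. Low depth limits the small units: at these library sizes 1 read is most of the level of Sp110 or Tdpoz in several clones.

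Leaving out each clone in turn, edgeR called 0 to 3 units, 0 to 6 member rows, 0 to 4378 genes and 0 to 33 list genes, all of the calls coming without clone 14. The cause was not tested. DESeq2 called 4049 genes without clone 14, 315 without 30, 264 without 33, 182 without 49, 741 without 51 and 133 without 52. On the same settings it called 3, 1, 2, 1, 2 and 2 units, 2, 0, 0, 0, 1 and 0 member rows, and 30, 2, 1, 1, 2 and 1 list genes. For Zscan4 the log2 fold change ranged from 1.425 to 2.125 in edgeR, and DESeq2 gave 1.662 with all clones and 1.728, 1.81, 1.496 and 2.138 without clones 14, 33, 51 and 52, where it called the family. For Usp17l the range was 1.786 to 2.55 in edgeR, and DESeq2 gave 2.258 with all clones and 2.567, 1.785, 2.315, 2.172, 2.366 and 2.247 without clones 14, 30, 33, 49, 51 and 52. With each family's most counted row left out, DESeq2 gave 1.68 for Zscan4 and 1.97 for Usp17l. With the rows left out that M21 names or types as pseudogenes it gave 1.752 for Zscan4, and with every row that M21 names Zscan4 it gave 1.673. Both families were called in each of these, and Arg2 as the third unit.

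The Pramel sum was not called in any setting. It ranged from -0.2337 to 0.4804 in edgeR, and its sign turned without clone 30 (DESeq2 -0.2605) and without clone 51 (edgeR -0.0423, DESeq2 -0.0521). Pramel7 ranged from -0.6881 to 0.1347, and turned without clone 33 (DESeq2 0.1111) and without clone 49 (edgeR 0.0407, DESeq2 0.0553).

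Replicate numbers 1 to 3 are shared by the groups. Deviations from the group means correlated by 0.458, 0.109 and -0.0239 between clones of the same number, and not every clone matched its own number best, so the numbers were not taken as pairs. With the replicate number as a block, edgeR called 0 units, 3 genes and 1 list gene, and the adjusted p was 0.0712 for Zscan4 (log2 fold change 1.671) and 0.0652 for Usp17l (2.261).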
